A study of Homo sapiens with 2 samples.

Results

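The N-glycan synthesis and LacdiNAc enzyme genes are a hand-written list of 45 gene symbols. They cover the assembly of the lipid-linked glycan, its transfer to protein, its trimming, branching and capping, and the enzymes that make the LacdiNAc ending. A member was any listed gene whose symbol equalled one of these names, whatever its value. Of the 16424 rows in the table, 45 carried a member symbol and stood for 44 of the 45 genes, because ALG9 had 2 rows and B4GALNT3 has no row here.

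The cells were PLC/PRF/5, an established human hepatoma line, and the measurement was cap analysis of gene expression (CAGE), in which the capped 5′ end of an RNA is read as a short tag. The control was 1 library of non-treated cells (0 µg/ml), and it was set against 1 library of cells kept with 3 µg/ml M2BPGi for 6 h. M2BPGi is the glycoform of Mac-2 binding protein that is bound by the lectin of Wisteria floribunda (WFA), and the study used CAGE to look for cell signals that respond to it. Values are CPM, tags of a gene scaled to the depth of its library, and since a tag marks a transcript start, levels of different genes were compared as starts and not scaled by length. The library of non-treated cells had 24040209 tags and the library with M2BPGi 24862941, as read back from the CPM steps.

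With 1 library per condition, no difference had a replicate check, and the conditions were not tested against each other. The log2 ratio, M2BPGi over non-treated, was taken after adding 1 CPM to both values, over the 13724 rows with a mean of at least 1 CPM. This addition understates the change of low genes. Beside it stands the 95% Clopper-Pearson interval of the log2 tag ratio without that addition, which covers counting error only. In bulk RNA, fewer cells of a type and less RNA per cell cannot be told apart.

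N-glycosylation begins on the membrane of the endoplasmic reticulum (ER), where sugars are added in turn to the lipid dolichol phosphate. The oligosaccharyltransferase complex moves the finished glycan onto asparagines of new proteins, glucosidases and mannosidases trim it, and Golgi enzymes then rebuild it with branches of N-acetylglucosamine, galactose, fucose and sialic acid. Where N-acetylgalactosamine takes the place of galactose, the ending is LacdiNAc, a structure that WFA binds. Hepatocytes secrete many of the N-glycosylated plasma proteins.

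The cell line was checked against marker genes. All 8 hepatocyte or hepatoma markers had a row, with FGB as the most abundant at 950.0 CPM without and 623 CPM with M2BPGi, AFP at 695 and 566 CPM and ALB at 8.82 and 7.04 CPM. Summed over the 8 markers, the level was 2411 and 1721 CPM, and 7 of the 8 were lower with M2BPGi. Their part in the results given here was not tested. Of the 4 epithelial markers, 3 had a row and EPCAM had none. KRT18 had 1249.8 and 1592 CPM, KRT8 had 835 and 811 CPM, and CDH1 had 135 and 105 CPM. Most markers of other liver cells had no row here. Of the stellate cell markers, 2 of 6 had a row and summed to 5.20 and 4.18 CPM, with COL3A1 as the most abundant. Of the macrophage markers, 2 of 5 had a row, CD68 with 21.2 and 20.5 CPM, close to the medians of 21.3 and 20.4 CPM over all genes tested, and PTPRC with 0 in both libraries, which allows up to 0.125 and 0.121 CPM. None of the 4 endothelial markers has a row here.

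All 45 member rows passed the filter of 1 CPM. Most of these rows were lower with M2BPGi, and the differences were small. Their summed level was 5436 CPM without and 4591 CPM with M2BPGi, 0.844-fold. The median log2 ratio of the members was -0.23, with quartiles of -0.37 and -0.09, while all genes tested had a median of -0.05 with quartiles of -0.26 and 0.14. Of the 45 rows, 35 were below 0, which is 77.8% against 57% of all genes, and 10 were above 0 (22.2% against 42.9%). The lowest log2 ratio was -0.60 and the highest 0.29.

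Counting error was smaller than many of these differences. The interval of the tag ratio lay below 1 for 32 members (71.1%), against 31.5% of all genes, and above 1 for 3 members (6.67%), against 22.8%. These 3 were DPM3, OSTC and ST3GAL4. Shares of all genes are not matched for level, and the members had a median of 63.2 CPM without M2BPGi against 21.3 CPM. Among genes of the same level, in 20 bins of mean CPM, 34.3% had an interval below 1 and 34.6% above 1. In the other 10 members the interval held 1, so that no difference was detectable at this depth. The size of the differences stayed mostly under the fold threshold: 1 member, MAN2A1, was at least 1.5-fold lower, against 4.04% of all genes, and 0 were at least 1.5-fold higher, against 1.6%. That 1 member no longer passed when the libraries were rescaled so that all genes had a median of 0, and the member just outside the threshold of -0.58 was TUSC3 at -0.55. Past a smaller threshold of 0.32 on the log2 scale, 16 members were lower (35.6% against 18.4% of all genes) and 0 higher (against 9.04%). At 2-fold, 0 were lower (against 0.43%) and 0 higher (against 0.24%).

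**Figure D1:**
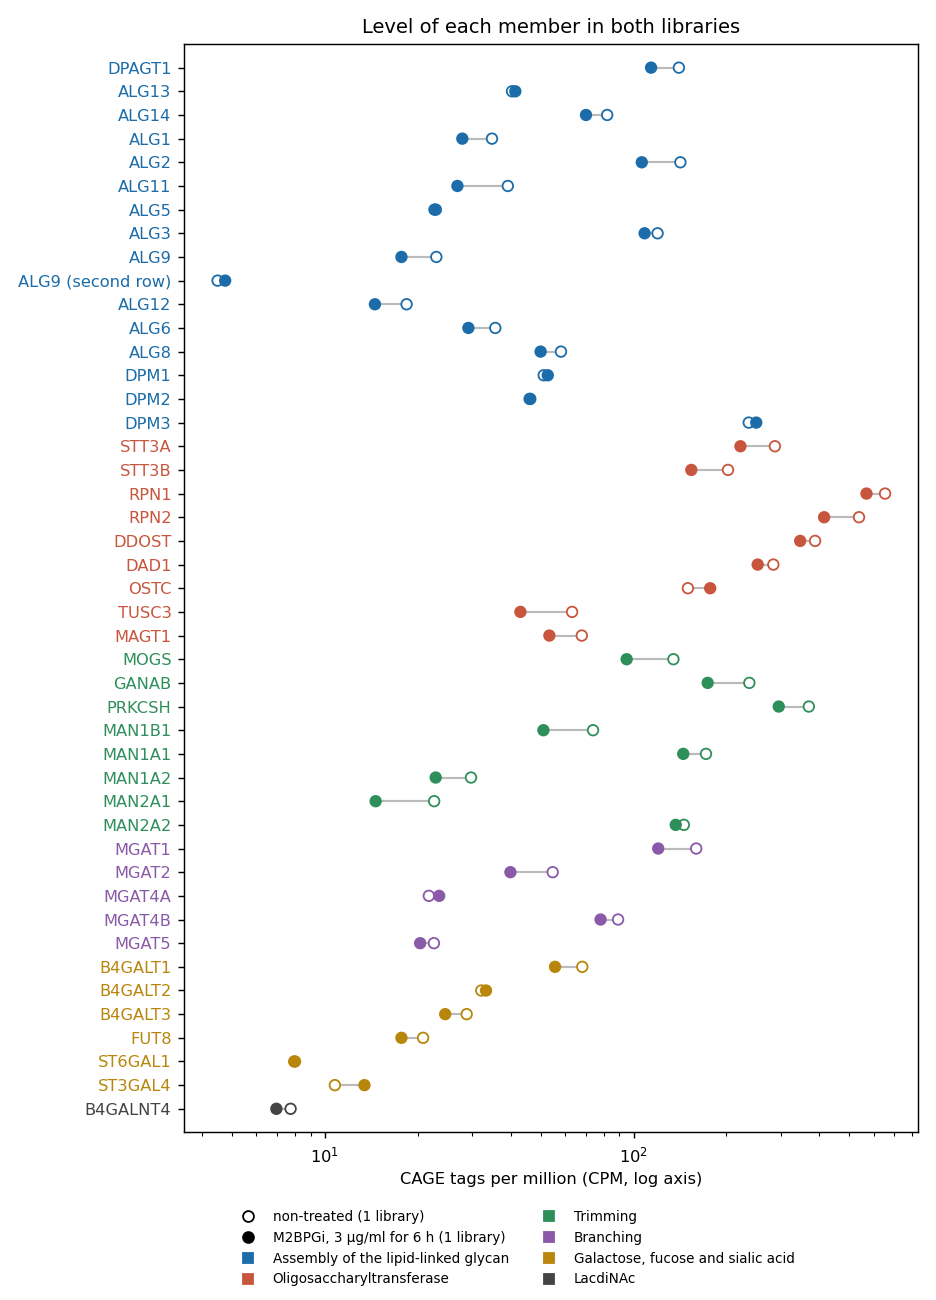
Level of each member row in CPM (log axis), grouped by step of the pathway, with open circles for the library of non-treated cells and filled circles for the library of M2BPGi-treated cells. Levels run from 4.49 CPM for the second ALG9 row to 653 CPM for RPN1 in non-treated cells, and in 35 of 45 rows the filled circle lies to the left.

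The plot of levels shows that the oligosaccharyltransferase subunits had the highest median level of the list and the enzymes of the last steps the lowest. In non-treated cells the median was 284 CPM for the 9 oligosaccharyltransferase rows and 140.1 CPM for the 8 trimming rows. It was 54.7 CPM for the 5 branching rows, 43.2 CPM for the 16 assembly rows and 24.8 CPM for the 6 rows of galactose, fucose and sialic acid enzymes. B4GALNT4, the LacdiNAc member with a row, had 7.74 CPM. Distances between the paired circles were short beside this range.

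The starts of these genes were also compared by sequence. RefSeq promoter windows of GRCh38.p14, 250 bases before to 50 bases after a start, were matched by symbol for 38 of the 45 members and gave 67 windows. In 61 of these, the first bases after the start lay in a GENCODE transcript of the gene. Both strands were searched for the ER stress response element, its 2 parts, the TATA box TATAAA and the GC box GGGCGG. The element is CCAAT, then 9 bases, then CCACG, in this order on 1 strand. The 2 parts overlap the whole element by construction. A match is a description and not a binding site. CCACG was in 58.2% of the member windows and 38.1% of all 35116 windows, GGGCGG in 65.7% and 45%, CCAAT in 37.3% and 34.6%, and TATAAA in 5.97% and 11.5%. The whole element was in 1 member window, that of ALG12 (1.49% against 0.0769% of all windows). All windows were used whether or not their gene was measured here, and they were not matched for base composition. Some members gave several windows, so these shares do not show a trait of the members.

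Stretches from 150 to 31 bases before the start are printed for 5 members with 1 window each. ALG11 and MGAT2 had the lowest log2 ratios of their steps, OSTC had the highest of its step, ALG12 holds the whole element and B4GALNT4 is the LacdiNAc enzyme. Capitals mark matches to any of the motifs on either strand. They lie at chr13:52012248-52012367 on the plus strand (ALG11), chr22:49918469-49918588 on the minus strand (ALG12), chr4:108650449-108650568 on the plus strand (OSTC), chr14:49620649-49620768 on the plus strand (MGAT2) and chr11:369349-369468 on the plus strand (B4GALNT4), upstream of the annotated exons. For B4GALNT4, the GENCODE gene begins further downstream than the RefSeq start, at chr11:369796.
ALG11: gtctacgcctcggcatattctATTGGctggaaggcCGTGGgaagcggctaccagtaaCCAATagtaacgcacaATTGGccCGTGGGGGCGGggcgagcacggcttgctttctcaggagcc
ALG12: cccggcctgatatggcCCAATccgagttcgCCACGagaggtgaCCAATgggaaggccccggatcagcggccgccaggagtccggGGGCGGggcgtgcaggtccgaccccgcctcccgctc
OSTC: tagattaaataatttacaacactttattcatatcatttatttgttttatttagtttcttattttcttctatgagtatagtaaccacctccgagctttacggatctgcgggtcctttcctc
MGAT2: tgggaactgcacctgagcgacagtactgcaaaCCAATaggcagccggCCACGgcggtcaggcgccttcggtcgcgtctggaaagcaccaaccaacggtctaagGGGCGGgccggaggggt
B4GALNT4: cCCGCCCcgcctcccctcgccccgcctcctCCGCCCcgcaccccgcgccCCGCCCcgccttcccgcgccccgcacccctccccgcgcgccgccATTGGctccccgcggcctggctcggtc
These stretches differ widely in base composition. B4GALNT4 has 86.7% G and C with 3 GC boxes and 1 CCAAT, while OSTC has 30.8% and no match in this stretch, although its whole window holds CCACG and the GC box. ALG11, at 60% G and C, has 3 CCAAT, 2 CCACG and 1 GC box. In ALG12 the whole element spans 134 to 116 bases before the start. Over all matched members, those with CCACG in a window had a median of -0.16 on the log2 scale and those without it -0.30, and those with and without CCAAT had -0.24 and -0.22.

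The first step of the pathway is the assembly of the glycan on dolichol. Of its 16 rows, 11 were lower (68.8% against 57% of all genes) and 5 higher, with a median log2 ratio of -0.22. Intervals lay below 1 for 10 rows (62.5% against 31.5% of all genes) and above 1 for 1 row. Their summed level was 1094 CPM without and 983 CPM with M2BPGi. The 10 rows with an interval below 1 were all of genes that build the glycan, while the interval of ALG13, another such gene, held 1. Members that supply dolichol-bound mannose and glucose had no interval below 1, although ALG5 is among the 11 lower rows. Whether builders and suppliers differed was not tested.

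DPAGT1 (ENSG00000172269, chr11:119096503-119108331, minus strand), the enzyme that starts the glycan and the target of tunicamycin, had 140.3 CPM without and 114 CPM with M2BPGi. Its log2 ratio was -0.30 (interval -0.37 to -0.23). ALG13 and ALG14 together add the next N-acetylglucosamine. ALG14, the membrane anchor of this pair, had 82.2 and 70.1 CPM, a log2 ratio of -0.23, whereas ALG13, the catalytic subunit, had 40.4 and 41.4 CPM, a log2 ratio of 0.03 with an interval that held 1. ALG14 was lower beyond counting error as reported, but at -0.09 after centring on genes of the same transcript length its interval held 1, and whether the 2 subunits differed from each other was not tested.

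The mannoses added on the cytosolic side are the work of ALG1, ALG2 and ALG11. ALG1 had 34.8 and 27.9 CPM (log2 ratio -0.31), and ALG2 had 141.9 and 106 CPM (-0.41). ALG11 (ENSG00000253710, chr13:52012398-52032171, plus strand), whose upstream stretch is printed above, had 39.1 and 26.9 CPM and the lowest log2 ratio of the assembly group, -0.53 (interval -0.69 to -0.40). All 3 enzymes of this side were lower by more than counting error.

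On the luminal side, ALG3, ALG9 and ALG12 add further mannoses and ALG6 and ALG8 add glucoses. ALG3 had 119.6 and 108.6 CPM (log2 ratio -0.14, and -0.09 after rescaling), ALG12 had 18.4 and 14.5 CPM (-0.32), ALG6 had 35.7 and 29.2 CPM (-0.28) and ALG8 had 58.2 and 49.99 CPM (-0.22). The main ALG9 row had 23.0 and 17.7 CPM (-0.36). These 5 genes were lower, each with an interval below 1. The second row with the symbol ALG9 had 4.49 and 4.75 CPM. GENCODE names that gene AP001781.2, it overlaps FDXACB1 on the same strand and its values equal those of the FDXACB1 row, so it does not measure ALG9 by itself.

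The sugar donors on dolichol are made by ALG5, which loads glucose, and by the mannose synthase, with DPM1 as its catalytic subunit and DPM2 and DPM3 as its membrane partners. ALG5 had 22.9 and 22.6 CPM (log2 ratio -0.01), DPM1 had 51.2 and 52.7 CPM (0.04), and DPM2 had 46.1 and 46.3 CPM (0.01). The intervals of these 3 genes held 1. A stretch at a start of ALG5 transcripts matches 24 other genes, so its tags may not all be its own. DPM3 (ENSG00000179085, chr1:155139891-155140595, minus strand) had 236 and 249.8 CPM and the highest log2 ratio of the assembly group, 0.08 (interval 0.03 to 0.13), which was 0.00 after centring on genes of the same level. The donor genes thus had no lower value beyond counting error.

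**Figure D2:**
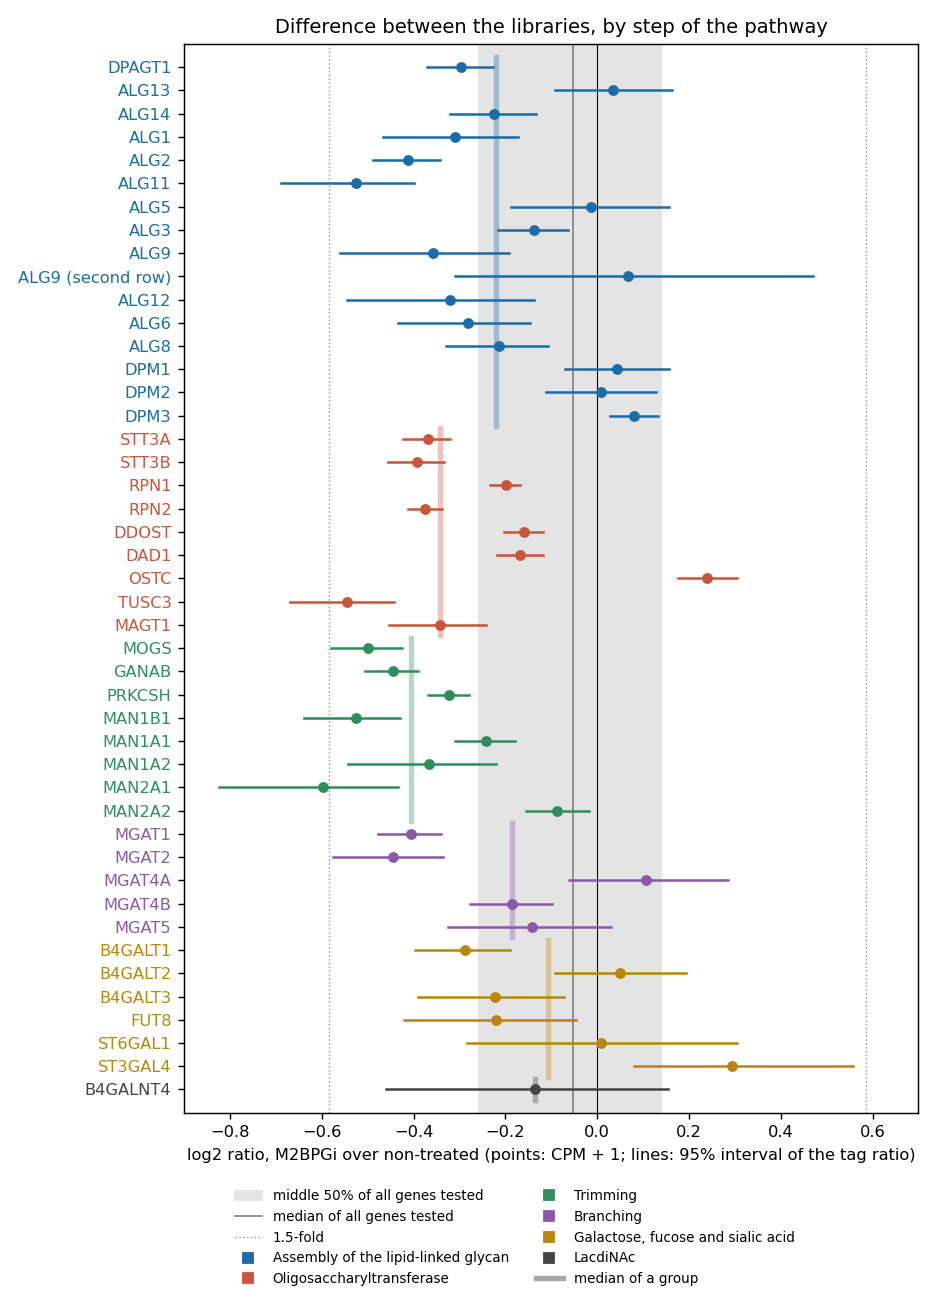
Log2 ratio, M2BPGi over non-treated, for each member row (points, CPM + 1), with the 95% interval of its tag ratio (lines) and the median of each step (vertical bars). The grey band is the middle 50% of all genes tested, from -0.26 to 0.14, and dotted lines mark 1.5-fold; the point of MAN2A1 at -0.60 is the one beyond a dotted line.

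The plot of log2 ratios shows the steps side by side. Medians were -0.22 for assembly, -0.34 for the oligosaccharyltransferase, -0.41 for trimming, -0.19 for branching and -0.11 for galactose, fucose and sialic acid. All 8 trimming rows and the 1 LacdiNAc row were below 0, and the galactose, fucose and sialic acid rows were split evenly. Whether the steps differed from each other was not tested.

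The oligosaccharyltransferase transfers the glycan to protein. Of its 9 rows, 8 were lower with an interval below 1 (88.9% against 31.5% of all genes), and 1, OSTC, was higher with an interval above 1 (against 22.8%). Among genes of the same level these shares were 32.3% and 54.2%. The median log2 ratio was -0.34, and the summed level was 2633 CPM without and 2232 CPM with M2BPGi. The complex exists with either of a pair of catalytic subunits. STT3A (ENSG00000134910, chr11:125591712-125625215, plus strand), which works beside the translocon, had 287 and 222 CPM, a log2 ratio of -0.37 (interval -0.42 to -0.32). STT3B (ENSG00000163527, chr3:31532638-31637622, plus strand), which can act after translation, had 202 and 154 CPM, and its log2 ratio was -0.39 (interval -0.46 to -0.33).

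Both catalytic genes were therefore lower by nearly the same amount. STT3A made up 58.7% of the tags of the pair in non-treated cells (95% Clopper-Pearson interval 57.8 to 59.5) and 59.1% in M2BPGi-treated cells (58.1 to 60.1), and these intervals overlapped. The end of STT3A overlaps CHEK1 on the same strand, whose own level was 50.4 and 51.2 CPM.

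The 4 subunits on the member list that both forms share were also lower. RPN1 had 653 and 569 CPM (log2 ratio -0.20), RPN2 had 538 and 415 CPM (-0.37), DDOST had 387 and 347 CPM (-0.16) and DAD1 had 284 and 252.5 CPM (-0.17). RPN2 stood lowest among these 4. TUSC3 and MAGT1 are oxidoreductase subunits that join the STT3B form. TUSC3 (ENSG00000104723, chr8:15417215-15766649, plus strand) had 63.2 and 43 CPM and the lowest log2 ratio of the complex, -0.55 (interval -0.67 to -0.44), and MAGT1 had 68.0 and 53.4 CPM (-0.34).

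OSTC, a small subunit of the STT3A form, went the other way. OSTC (ENSG00000198856, chr4:108650584-108667820, plus strand) had 150 CPM without and 177 CPM with M2BPGi, a log2 ratio of 0.24 (interval 0.18 to 0.30). Its transcript start resembles that of 4 other genes (95% identity or more over 100 nt or longer), so the assignment of its tags is uncertain. The copy with a row, OSTCP1, had 0.04 and 0 CPM. The same direction held for 3 further small subunits that are not on the member list. KRTCAP2 had 203 and 225 CPM (log2 ratio 0.15), TMEM258 had 263 and 304 CPM (0.21) and OST4 had 690.0 and 854 CPM (0.31), each with an interval above 1. Among genes of the same level as these 3, 60.6% had an interval above 1, against 22.8% of all genes.

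Transcript length differed between these subunits. The subunits with a higher value have longest coding transcripts of 552 nt (KRTCAP2), 561 nt (OST4), 1077 nt (OSTC) and 1692 nt (TMEM258). Those with a lower value range from 731 nt for DAD1, 2126 nt for DDOST and 2314 nt for RPN1 to 4558 nt for STT3A. In all genes, the median log2 ratio was 0.04 for transcripts shorter than 1500 nt (2601 genes), -0.02 from 1500 to 3000 nt (4077 genes) and -0.10 from 3000 nt upward (6593 genes). In the members it was 0.04 (5 rows), -0.22 (16 rows) and -0.29 (24 rows). Long genes were thus lower than short ones in members and in all genes alike. With each log2 ratio centred on genes in the same bin of length (10 bins), the median of the members was -0.19 and 36 of 45 were below 0. Centred this way, OSTC was at 0.17, STT3A at -0.28 and STT3B at -0.31. Centred on genes of the same level instead, they were at 0.16, -0.51 and -0.47, RPN1 was at -0.34, DDOST at -0.30 and DAD1 at -0.31, while KRTCAP2 was at 0.07, TMEM258 at 0.06 and OST4 at 0.16, all with an interval on the same side of 1 as before.

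**Figure D3:**
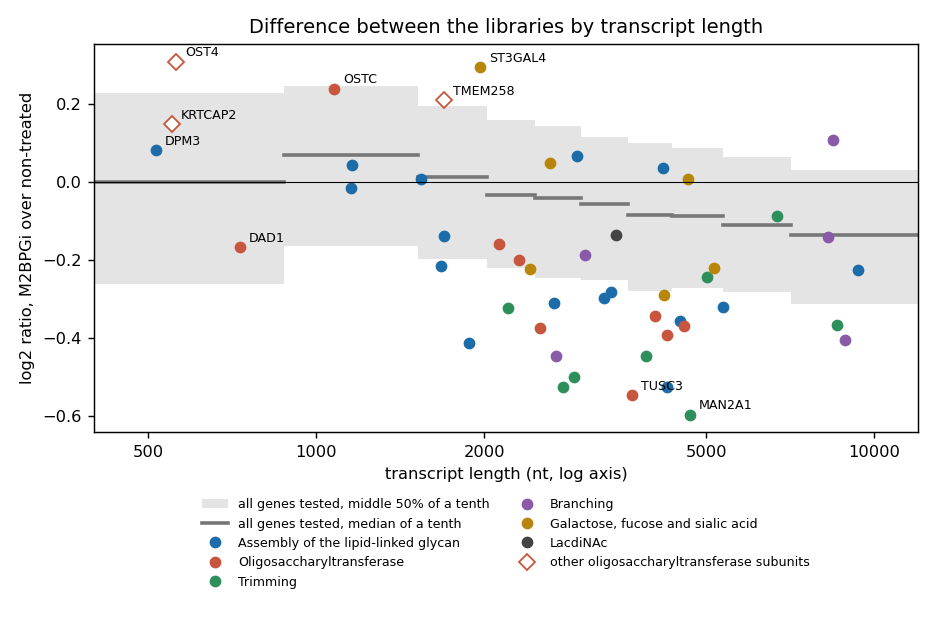
Log2 ratio (CPM + 1) against transcript length in nt (log axis) for the members, coloured by step, and for 3 other oligosaccharyltransferase subunits (diamonds). Grey bars give the median and grey boxes the middle 50% of all genes in each of 10 bins of length. The medians run from 0.07 to -0.13, the last in the bin with the longest transcripts, and most members lie below the bar of their bin.

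The plot against length shows members on both sides of the bars. DAD1, at 731 nt, lay below the bar of its bin although it is short, and MGAT4A, at 8432 nt, lay above its bar although it is long.

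Trimming was the step with the lowest median. All 8 rows were lower with an interval below 1 (against 31.5% of all genes), the median log2 ratio was -0.41, and the summed level was 1185 CPM without and 935 CPM with M2BPGi. MOGS, the glucosidase that removes the outermost glucose, had 134.7 and 95 CPM (log2 ratio -0.50). GANAB and PRKCSH, the catalytic and the regulatory subunit of the next glucosidase, had 237 and 174 CPM (-0.45) and 369.8 and 295.5 CPM (-0.32). A stretch of a GANAB transcript start matches 14 unrelated genes, so a part of its tags may be uncertain. All 3 genes of glucose removal were lower.

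Mannose removal begins in the ER with MAN1B1, which had 73.9 and 51.0 CPM (log2 ratio -0.53). MAN1A1 and MAN1A2, which continue it in the Golgi, had 172 and 145 CPM (-0.24) and 29.7 and 22.9 CPM (-0.37), or -0.16 and -0.23 after centring by length. MAN2A1 and MAN2A2 remove the last mannoses before complex branches are made. MAN2A1 (ENSG00000112893, chr5:109689366-109869625, plus strand) had 22.6 CPM without and 14.6 CPM with M2BPGi, the lowest log2 ratio of all members at -0.60 (interval -0.83 to -0.44). MAN2A2 (ENSG00000196547, chr15:90902218-90922584, plus strand) had 146 and 137 CPM, the highest log2 ratio of the trimming group at -0.09 (interval -0.16 to -0.02), and was at -0.17 after centring by level and 0.023 after centring by length. Its interval held 1 after rescaling and after centring by length.

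The 2 genes of this last pair thus differed in size of change. MAN2A1 made up 13.4% of the tags of the pair in non-treated cells (12.4 to 14.5) and 9.63% in M2BPGi-treated cells (8.71 to 10.6), without overlap of the intervals. For MAN1A1 in its pair with MAN1A2 the shares were 85.2% (84.2 to 86.2) and 86.4% (85.3 to 87.4), with overlap. For TUSC3 in its pair with MAGT1 they were 48.2% (46.4 to 49.95) and 44.6% (42.6 to 46.6), with a narrow overlap. Here and for the other shares given, overlap of the intervals does not show that a share was unchanged. The pairs were chosen after values had been seen.

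Branching was lower in 4 of 5 rows (80% against 57% of all genes), 3 of them with an interval below 1 (60% against 31.5%), and the median log2 ratio was -0.19. The summed level was 348 CPM without and 282 CPM with M2BPGi. MGAT1, which opens the way from mannose-rich to hybrid and complex glycans, had 159.6 and 120.2 CPM (log2 ratio -0.41). MGAT2 (ENSG00000168282, chr14:49620795-49623481, plus strand), which starts the other arm of a complex glycan, had 54.7 and 39.9 CPM and the lowest log2 ratio of the group, -0.45 (interval -0.58 to -0.34). Both enzymes of the basic arms were lower by more than counting error.

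The enzymes of the additional branches were closer to 0. MGAT4B had 89.1 and 78.2 CPM (log2 ratio -0.19). Its paralogue MGAT4A (ENSG00000071073, chr2:98619106-98731126, minus strand) had 21.7 and 23.5 CPM and the highest log2 ratio of the group, 0.11 (interval -0.06 to 0.28). MGAT5 (ENSG00000152127, chr2:134119983-134454621, plus strand), the enzyme of the branch that galectin-3 ligands often carry, had 22.6 and 20.4 CPM, a log2 ratio of -0.14 (interval -0.33 to 0.03). As reported, the differences of MGAT4A and MGAT5 were not detectable at this depth. MGAT4A was at 0.18 after centring by level and 0.24 by length, both with an interval above 1, and MGAT5 was at -0.07 and -0.01, both with an interval that held 1. As a share of the MGAT4 pair, MGAT4A had 19.6% (18.1 to 21.2) in non-treated and 23.1% (21.4 to 24.8) in M2BPGi-treated cells, without overlap.

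The 6 enzymes that add galactose, fucose and sialic acid had no common direction. Of them 3 were lower with an interval below 1 (50% against 31.5% of all genes), 1 was higher with an interval above 1 (against 22.8%), and the summed level was 169 CPM without and 153 CPM with M2BPGi. Of the 3 intervals below 1, that of FUT8 held 1 after rescaling or either centring, and that of B4GALT3 after centring by level. The median log2 ratio was -0.11, -0.22 at a mean of at least 10 CPM, and 0.0080 without FUT8, which shares a start sequence with other genes. B4GALT1 (ENSG00000086062, chr9:33104082-33167356, minus strand), the main galactosyltransferase of N-glycans in many tissues, had 68.2 and 55.7 CPM and the lowest log2 ratio of the group, -0.29 (interval -0.40 to -0.19). B4GALT2 had 32.1 and 33.3 CPM (0.05) and B4GALT3 had 28.8 and 24.5 CPM (-0.22, and -0.14 centred by level).

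Within these 3 galactosyltransferases, the mix of tags was different in the libraries. B4GALT1 made up 52.8% (51.1 to 54.6) in non-treated and 49.1% (47.2 to 50.9) in M2BPGi-treated cells, and B4GALT2 24.9% (23.4 to 26.4) and 29.3% (27.6 to 31.03), both without overlap. B4GALT3 had 22.3% (20.8 to 23.8) and 21.6% (20.1 to 23.2), with overlap.

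FUT8 (ENSG00000033170, chr14:65410592-65744121, plus strand), the enzyme of core fucose, had 20.8 and 17.7 CPM, a log2 ratio of -0.22 (interval -0.42 to -0.05). It was -0.17 after rescaling, -0.15 after centring by level and -0.14 by length, and its difference was then within counting error. A stretch at a start of its transcripts matches 28 other genes, so its tags may be assigned to more than FUT8. ST6GAL1 and ST3GAL4 add sialic acid in different linkages. ST6GAL1 had 7.95 and 8 CPM (0.01). ST3GAL4 (ENSG00000110080, chr11:126355640-126440344, plus strand) had 10.8 and 13.4 CPM and the highest log2 ratio of all members, 0.29 (interval 0.08 to 0.56). It was the member of this step with a higher value beyond counting error.

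B4GALNT3 and B4GALNT4 make LacdiNAc, and B4GALNT3 was not analysed here because it has no row. B4GALNT4 (ENSG00000182272, chr11:369796-382116, plus strand), whose G and C rich upstream stretch is printed above, had 7.74 CPM without and 6.96 CPM with M2BPGi, from 186 and 173 tags. Its log2 ratio was -0.13 (interval -0.46 to 0.15). A difference in B4GALNT4 was not detectable at this depth, and the log2 ratio was -0.02 after centring by level and -0.08 by length. CHST9, which can add sulphate to LacdiNAc, had 38.5 and 34.2 CPM (log2 ratio -0.16, interval -0.30 to -0.03), but its interval held 1 after rescaling or either centring, with -0.03 centred by length.

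Mac-2 binding protein, the carrier of the WFA-reactive glycan, and galectin-3 were measured beside these enzymes. LGALS3BP, which encodes Mac-2 binding protein, had 277 CPM without and 213 CPM with M2BPGi, a log2 ratio of -0.38 (interval -0.43 to -0.33). LGALS3, which encodes galectin-3, had 136 and 149.98 CPM, and its log2 ratio was 0.14 (interval 0.07 to 0.20). The carrier was lower and galectin-3 higher than counting error allows, but for LGALS3 the log2 ratio was 0.05 after centring by level and 0.07 after centring by length, both within its counting error of 0.

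Other genes of the pathway were taken from a list of 59 symbols, of which 54 had a row and 52 passed the filter. Their median log2 ratio was -0.13, with 35 lower, which is 67.3% against 57% of all genes, and 17 higher. Of these, 4 were at least 1.5-fold lower (against 4.04% of all genes) and 0 at least 1.5-fold higher (against 1.6%). They were DOLK, the kinase that makes dolichol phosphate, with 45.4 and 26.9 CPM (log2 ratio -0.74, interval -0.90 to -0.62), ENGASE with 18.4 and 11.3 CPM (-0.65, interval -0.92 to -0.48), SLC35A2, the Golgi transporter of UDP-galactose, with 75.3 and 48.9 CPM (-0.61, interval -0.73 to -0.52), and EDEM1 with 53.1 and 34.6 CPM (-0.60, interval -0.74 to -0.49). DOLK and ENGASE passed this threshold also after rescaling and either centring, SLC35A2 after centring by level and EDEM1 after none of them. ENGASE releases glycans in the cytosol and EDEM1 marks misfolded glycoproteins for degradation.

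The branches of this wider list had medians on both sides of 0, and their counts stand beside 57% of all genes below 0 and 31.5% with an interval below 1. All 9 dolichol genes were below 0 with a median of -0.20, 5 of them with an interval below 1 (55.6%), or 4 after rescaling or either centring. Of the 11 genes of glycan quality control, 10 were lower (90.9%) and the median was -0.38. Among them the lectin chaperone CANX had 1794 and 1244.5 CPM (log2 ratio -0.53), although its transcript starts match other genes. CANX was at -0.67 centred by level, which is past 1.5-fold. CALR had 1559 and 1280.1 CPM (-0.28, and -0.43 centred by level). Of the 6 transporters of sugar nucleotides, 5 were lower (83.3%), with a median of -0.29. Intervals lay below 1 for these 5, and for 3 after centring by length. Of the 7 other branching and capping enzymes past the filter, 6 were lower (85.7%), with a median of -0.16. Intervals lay below 1 for 4 of them (57.1%), and for 0 after centring by length.

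The genes that make sugar nucleotides, largely in the cytosol, had a median above 0. Of 16, 11 were higher (against 42.9% of all genes), 9 of them with an interval above 1 (against 22.8%), and 5 were lower, 1 of them with an interval below 1 (6.25% against 31.5%). Among genes of the same level 37.2% had an interval above 1, and after centring by level 6 of the 16 had. The median log2 ratio was 0.09, and the summed level was 1364 CPM without and 1465 CPM with M2BPGi. GNPNAT1, an enzyme of the hexosamine pathway to UDP-N-acetylglucosamine, had 92.8 and 116 CPM and the highest log2 ratio of the wider list, 0.32 (interval 0.25 to 0.41). UAP1, the last enzyme of that pathway, had 33.1 and 29.2 CPM (-0.17, interval -0.33 to -0.03), with an interval that held 1 after rescaling or either centring. The list of sugar nucleotide genes and the list of KRTCAP2, TMEM258 and OST4 were the 2 of this wider list with a median above 0.

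**Figure D4:**
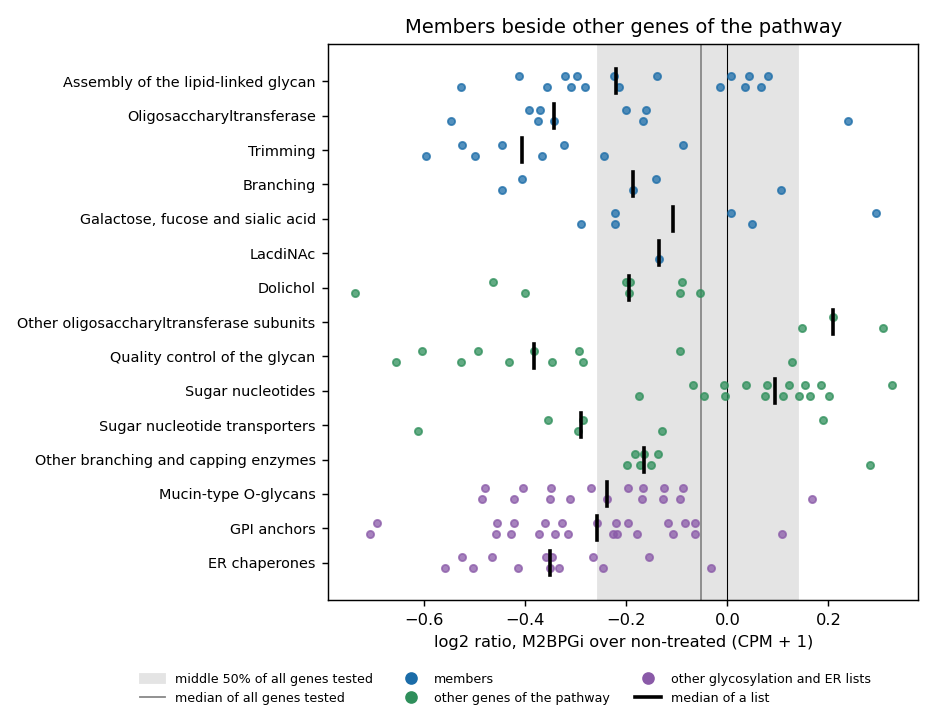
Log2 ratio (CPM + 1) of each gene in the 6 member groups (blue), the other genes of the pathway (green) and further glycosylation and ER lists (purple), with the median of each list as a black bar. The grey band is the middle 50% of all genes tested; medians lie above 0 for the other oligosaccharyltransferase subunits (0.21) and the sugar nucleotides (0.09) and lowest for trimming (-0.41).

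The plot of lists sets the members beside the rest of the pathway. The medians of the lists of ER and Golgi enzymes, from -0.41 to -0.11, lay left of the median of all genes. Those of the sugar nucleotide list and of the 3 other oligosaccharyltransferase subunits lay right of it. Genes of the galactose, fucose and sialic acid list lay evenly on both sides. No test compared these lists.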

How the data were processed

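Libraries, sequencing and mapping were done for the authors by DNAFORM. The authors deposited CPM per gene, rounded to 2 decimals. Their methods give CAGEr as the tool that grouped tag starts and BWA as the mapper. Ribosomal reads and reads with an unread base were left out. The submitters' processing notes name BWA, HISAT2 and hg19, while the methods name a mouse genome; gene identifiers were human. The assignment of tags to genes is not given in the sources used here.

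Whole tags were read back from the CPM steps, a match being equality after rounding (100% of values above 0 in both libraries). Of values up to 20 tags, 87.6% (non-treated) and 94.1% (M2BPGi) lay within 0.1 of a whole tag, where rounding alone shifts a value by up to 0.120 and 0.124 of a tag. Because rounding alone can exceed this tolerance, these percentages cannot decide whether the values were whole tags. As both were under 95%, no count model was used, and the tags served for intervals and shares. Coordinates and transcript lengths came from GENCODE v29 (GRCh38) by identifier, not from the mapping build. Similar transcript starts were searched with BLAST+ 2.17.0 (the first 500 nt, at least 100 nt at 95% identity).

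Members, lists and rules were chosen with earlier results of these data known. Named genes were B4GALNT4, DPAGT1, STT3A, STT3B, MGAT5, FUT8, LGALS3BP, LGALS3, members past 1.5-fold and the highest and lowest of each step in full. Of the other lists they were genes past 1.5-fold and the 3 highest and lowest with a mean of at least 10 CPM; further names were chosen after values were seen. Python 3.11.15, numpy 2.4.6, scipy 1.17.1 and pandas 2.3.3 were used, and the code was tested on simulated data.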

Additional observations from a re-analysis of the deposited data

How the results depend on the processing

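The median log2 ratio of the members stayed below 0 under every alternative run, from -0.26 to -0.17, and 31 to 36 member rows were below 0. Members at least 1.5-fold lower were 0, in place of 1, with a pseudocount of 5 CPM, after rescaling, after centring by level or by length and at 2-fold, and 16 past 0.32 on the log2 scale. Of the 32 member intervals below 1, counts were 30 after rescaling, 30 after centring by level and 29 by length. Over all lists named here, the share of genes of the same level with an interval below 1 was 27.0% to 36.2%. Genes higher and lower among all tested, 219 and 555 as reported, were 336 and 856 with a pseudocount of 0.1 CPM, 91 and 164 with 5 CPM, 135 and 223 with a mean of at least 10 CPM, 33 and 59 at 2-fold, and 1240 and 2532 past 0.32 on the log2 scale. Without genes with a near-identical copy, 133 were higher and 394 lower. The split was 298 and 412 after rescaling and 321 and 392 after centring by level. The oligosaccharyltransferase median was -0.29 after rescaling and -0.26 centred by length. The trimming median was -0.49 centred by level and -0.33 by length. The median for galactose, fucose and sialic acid was 0.0080 without near-identical copies, where FUT8 is left out. The galactose group was at -0.22 with a mean of at least 10 CPM. MAN2A2 was at 0.023 centred by length. The cause of the other shifts was not tested. Named genes had 90 values under alternatives, of which 12 moved by more than counting error with the same sign and 1 more changed sign. Leaving out the second ALG9 row was chosen after seeing the data. TMM factors, the binomial test of tags and the exact test of edgeR were not run, because under 95% of low values lay within 0.1 of a whole tag. LacdiNAc has no value at a mean of at least 10 CPM. No paired analysis was possible because there was 1 library without and 1 with M2BPGi.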

Other observations

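Other glycosylation genes of the ER and Golgi were lower as well. Of 17 genes for mucin-type O-glycans, 16 were below 0 (94.1% against 57% of all genes), 11 of them with an interval below 1 (64.7% against 31.5%) or 7 after centring by length, and the median log2 ratio was -0.24. Among genes with a mean of at least 10 CPM, the lowest were these 3: GALNT2, which starts O-glycans, had 113 CPM without and 81.2 CPM with M2BPGi (-0.48), GALNT4 had 17.5 and 12.2 CPM (-0.49), and C1GALT1C1, the chaperone of the core galactosyltransferase, had 57.0 and 42.3 CPM (-0.42). With a mean of at least 10 CPM, the highest was ST6GALNAC6 with 12.9 and 14.6 CPM (0.17, with an interval that held 1), followed by GALNT11 (-0.13) and GALNT10 (-0.17). The interval of ST6GALNAC6 lay above 1 after rescaling and after centring by level.

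Of 23 genes for GPI anchors past the filter, 22 were below 0 (95.7% against 57% of all genes), 17 of them with an interval below 1 (73.9% against 31.5%), with a median of -0.26. PIGV had 10.2 and 5.83 CPM (-0.71, interval -1.11 to -0.50) and PGAP3 had 8.36 and 4.79 CPM (-0.69, interval -1.14 to -0.47), and these 2 of 23 were at least 1.5-fold lower (against 4.04% of all genes), or 1 of them, PIGV, after centring by level. PIGN (-0.46), PIGW (-0.46) and PIGL (-0.43) were the lowest with a mean of at least 10 CPM, and PIGF (-0.06), PGAP2 (-0.06) and PIGC (-0.08) the highest.

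All 13 ER chaperone genes were below 0 (against 57% of all genes), 12 of them with an interval below 1 (92.3% against 31.5%), with a median of -0.35. HSP90B1 had 3043 and 2148 CPM (-0.50, and -0.65 centred by level, which is past 1.5-fold). DNAJC3 had 113 and 78.6 CPM (-0.52) and CRELD2 had 58.8 and 39.6 CPM (-0.56). HSPA5, the main chaperone induced by ER stress, had 576 and 457 CPM (-0.33). Of the genes with a mean of at least 10 CPM, SDF2L1 (-0.25), PDIA4 (-0.15, and -0.30 centred by level) and MANF (-0.03) were the highest. Whether these lists share a cause with the members was not tested.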
